A study of Homo sapiens with 6 samples.

Results

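The 47 genes described here encode the proteasome: its core rings, its regulatory particle, its activators and inhibitor, and the chaperones that assemble it. They are the protein-coding genes among 60624 deposited gene identifiers whose symbols are PSMA, PSMB, PSMC, PSMD, PSME, PSMF or PSMG followed by a number, together with POMP. PSMB8 and PSMB9, subunits of the immunoproteasome, were left out by that rule. Of the 47 members, 44 had a mean of at least 1 TPM (an abundance corrected for length and scaled so that each library has the same total) over the 6 libraries and were tested among 16734 genes.

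The libraries are poly(A)-selected RNA-seq of SV-HUC-1, a human urothelial epithelial line immortalised with SV40. In 3 libraries the cells had received a blank solution (control) and in the other 3 they had been exposed to 2,6-dichloro-1,4-benzoquinone (DCBQ), a halogenated quinone that forms when drinking water is disinfected. Exposure lasted 3 days, and the labels give no concentration. The design has 1 comparison, DCBQ against control, in 1 immortalised line, and the labels do not state whether the 3 libraries of a group are separate cultures. The p-values therefore reflect library-to-library variation that could be purely technical. TPM keeps no sequencing depth, so the depth is unknown. In bulk RNA, a difference in the number of cells of a kind and a difference in RNA per cell cannot be told apart.

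The proteasome degrades proteins that carry ubiquitin chains. Its barrel-shaped core has outer rings of alpha subunits and inner rings of beta subunits, some of which cut peptides. The regulatory particle caps the barrel: its lid removes ubiquitin, and its base, a ring of ATPases with scaffold subunits and ubiquitin receptors, unfolds the substrate and threads it into the core. Other activators open the core without ATP, and dedicated chaperones build the rings and the base. In many cells the transcription factor NRF1 (NFE2L1) raises proteasome genes together when proteasome activity is short, and interferon raises a subset of them.

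Urothelial and epithelial marker genes were present, with 12 of 15 at a mean of at least 1 TPM and a summed level of 4598 to 4795 TPM in control and 6500 to 6802 TPM in DCBQ, although UPK3A was listed at 0 and TP63 was at most 0.148 TPM. Of 6 fibroblast markers COL1A2, COL3A1, DCN and LUM were listed at 0 in all 6 libraries, and the summed level of 6.84 to 7.80 TPM in control and 14.8 to 16.5 TPM in DCBQ was almost all COL1A1. Endothelial markers summed to 3.89 to 4.97 TPM and 8.12 to 14.3 TPM, mostly from CDH5, and immune markers to 3.07 to 4.70 TPM and 8.25 to 9.01 TPM, mostly from CD68, with LYZ listed at 0 throughout. The part of these small sums in the results was not tested.

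Proteasome transcripts were more abundant after DCBQ. Of the 13 tested core ring genes 12 rose, with a median ratio of 1.39, and of the 17 regulatory particle genes 9 rose, with a median ratio of 1.14. The 8 assembly chaperones went both ways, with 3 higher and 2 lower. Of the 44 tested members, 28 were higher in DCBQ and 2 were lower (limma, adjusted p under 0.05 over all tested genes), while 14 did not pass. Among all 16734 tested genes, 13.4% were called higher and 39.5% lower. The median log2 difference (DCBQ minus control, on log2(TPM + 1)) was 0.24 over the tested members and -0.21 over all tested genes. All DCBQ libraries lay above all control libraries for 28 members and below them for 4, against 16.0% and 45.2% of all tested genes. Among the 5341 tested genes at least as abundant as the lowest tested member, 21.0% were called higher and 49.2% lower, and 23.1% and 52.6% had all DCBQ libraries above or below.

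The tilt of all genes towards lower values bears on these counts. Median-of-ratios scaling, which centres the libraries on each other, moved the median of all tested genes from -0.21 to -0.0039 and its calls from 2247 higher and 6610 lower to 3995 higher and 3861 lower. On that scale 37 members were called higher and 0 lower, with 23.9% of all tested genes called higher and 23.1% lower (38.6% and 27.1% of the as abundant genes). Quantile normalization gave 32 members higher and 0 lower, against 22.8% and 23.7%. The members' median on the median-of-ratios scale was 0.48. The order of the medians of the parts on the median-of-ratios scale was the same as on the deposited scale, with the alpha ring above the beta ring, the base ATPases above the lid, and the 2 groups of assembly chaperones lowest. That order could hardly change, because this scaling shifts the log2 differences of all members by nearly the same amount. The summed level of all members was 5202, 5256 and 5333 TPM in the control libraries and 6752, 6384 and 6445 TPM in the DCBQ libraries, or 0.526% ± 0.0066 of library TPM in control and 0.653% ± 0.020 in DCBQ (SD, n = 3 per group). The 3 DCBQ sums were all above the 3 control sums.

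**Figure D1:**
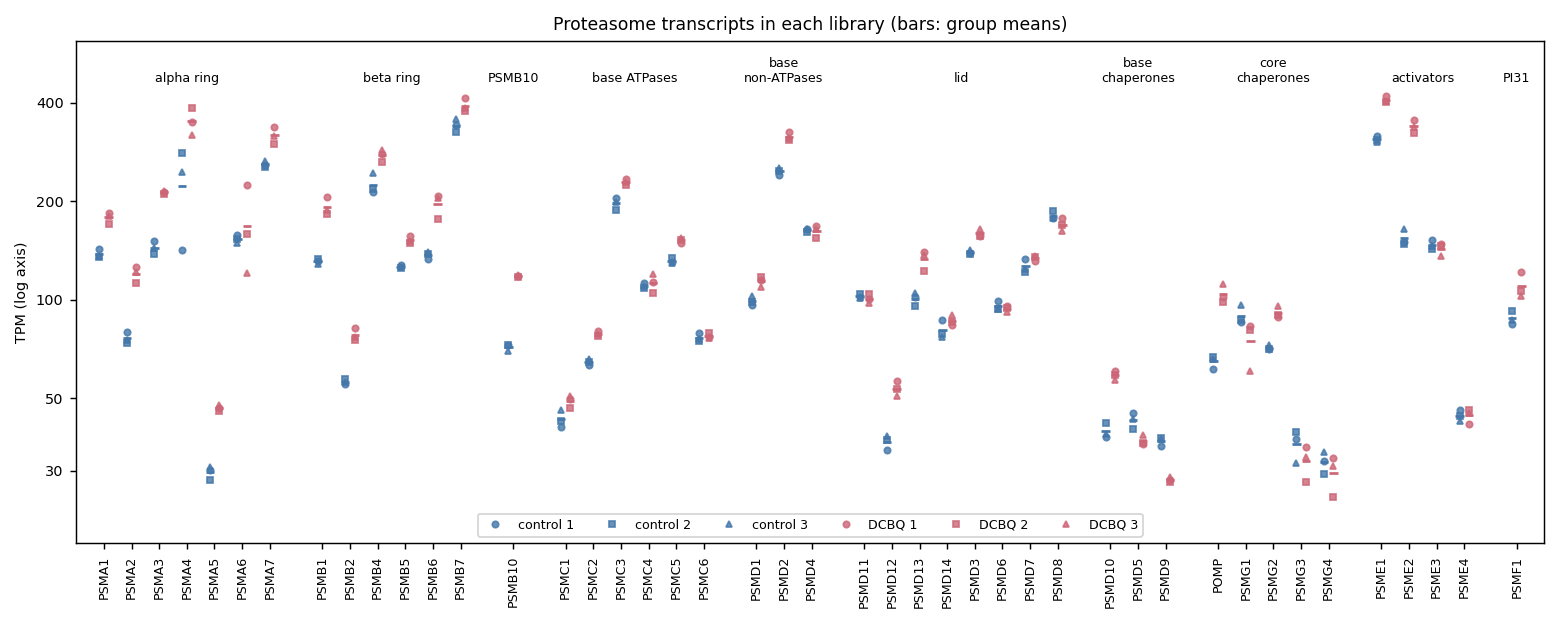
TPM (log axis) of the 44 tested proteasome genes in each of the 3 control (blue) and 3 DCBQ (red) libraries, grouped by part of the particle, with short bars at group means. Core ring genes sit higher in DCBQ in every case except PSMA6, where the groups overlap, and several lid genes lie at the same level in both groups.

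The alpha ring gates the entrance of the core and is the surface on which regulators dock. Of its 8 genes, 7 were tested, 6 rose and 0 fell, with a median log2 difference of 0.56. PSMA5 (chromosome 1, 109399031 to 109426427, minus strand) was the least abundant tested ring gene, at 30.0, 28.1 and 30.8 TPM in control and 46.6, 45.8 and 47.6 TPM in DCBQ. The 3 DCBQ values were tightly grouped and lay well above all control values, a 1.57-fold rise (log2 difference 0.64, SE 0.059, limma adjusted p = 5.9e-05). PSMA2 rose by the same factor, from 79.8, 73.8 and 75.4 TPM to 126, 113 and 121 TPM (adjusted p = 4.6e-05). PSMA3 rose 1.48-fold, from 144 ± 6.6 to 213 ± 2.2 TPM (SD, n = 3 per group). PSMA1 and PSMA7 rose less, 1.30-fold and 1.23-fold. These 5 genes kept their calls in all 19 alternative analyses. PSMA8, the alpha subunit of germ cells, was listed at 0 in all libraries.

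PSMA4 and PSMA6 were measured less firmly than the rest of the ring. PSMA4 had 142, 281 and 246 TPM in control and 349, 385 and 320 TPM in DCBQ, so control 1 was far below the other control libraries while the groups did not overlap. Its log2 difference of 0.71 (SE 0.22, limma adjusted p = 0.027) lost its call in 5 of 19 alternatives, among them leaving out DCBQ 1 (adjusted p = 0.073) or DCBQ 2 (adjusted p = 0.078), and without control 1 it was 0.41 (adjusted p = 0.0084). PSMA6 had 158, 153 and 149 TPM in control and 224, 159 and 121 TPM in DCBQ, and these groups overlapped (log2 difference 0.08, adjusted p = 0.73). Without DCBQ 1 its difference was -0.14 (adjusted p = 0.315). A read-through gene in GENCODE 29, AL121594.1, starts in the upstream gene KIAA0391, ends in PSMA6 and shares 14.1% of the exonic bases of PSMA6. It was at 4.97, 2.80 and 7.32 TPM in control and 4.11, 18.8 and 39.0 TPM in DCBQ. It was thus highest in the DCBQ library in which PSMA6 was lowest, and lowest where PSMA6 was highest. The sum of both genes was 228, 178 and 159.9 TPM in DCBQ against 156 to 163 TPM in control.

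**Figure D2:**
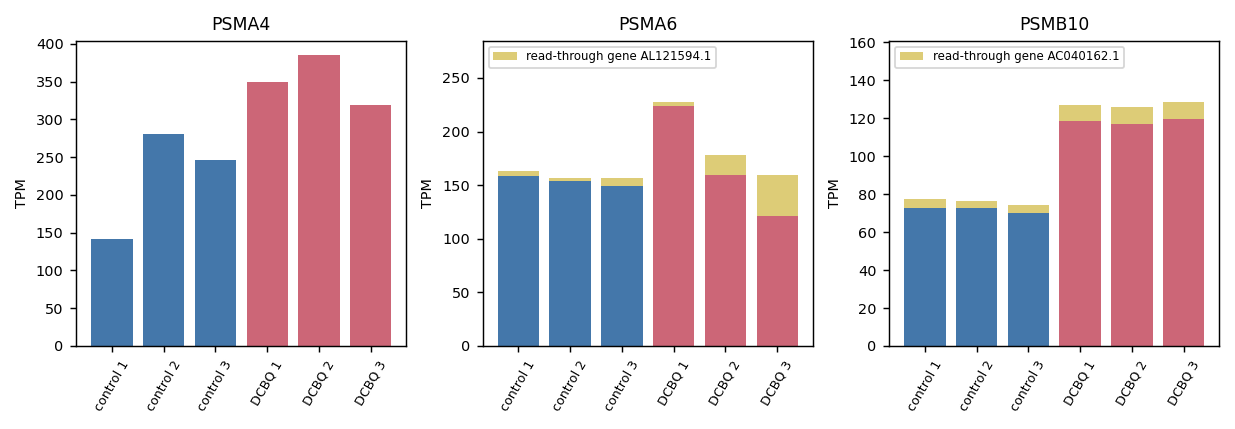
TPM (linear axis from 0) per library of PSMA4, PSMA6 and PSMB10 in control (blue) and DCBQ (red), with the TPM of the annotated read-through gene stacked in yellow. PSMA4 is low in control 1, PSMA6 ranges from 121 to 224 TPM within DCBQ while its read-through partner runs the other way, and PSMB10 is even within each group.

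The beta rings hold the cutting sites, and every tested constitutive gene of them rose. Of 7 genes 6 were tested and 6 rose, with a median of 0.38. The values of the 3 catalytic subunits follow. PSMB6, the caspase-like site, had 133, 138 and 139.6 TPM in control and 207, 177 and 205 TPM in DCBQ, a 1.43-fold rise (log2 difference 0.51, SE 0.065, limma adjusted p = 0.00031). PSMB5 (chromosome 14, 23016543 to 23035230, minus strand), the chymotrypsin-like site and the target of proteasome inhibitor drugs, rose 1.21-fold from 126 ± 1.1 to 152 ± 3.6 TPM (adjusted p = 0.00072). PSMB7, the trypsin-like site and the most abundant member at 341 ± 15 TPM in control, rose 1.15-fold to 392 ± 19 TPM, and its call was lost without the variance trend (adjusted p = 0.055). The 95% intervals of the log2 difference were 0.36 to 0.66 for PSMB6, 0.18 to 0.37 for PSMB5 and 0.08 to 0.32 for PSMB7. The difference between these genes was not tested. Among structural subunits PSMB1 rose 1.47-fold, PSMB2 1.39-fold and PSMB4 1.23-fold.

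PSMB3 was listed at 0 in 5 libraries and at 0.400 TPM in DCBQ 1. Because PSMB3 is an obligate beta-ring subunit, and RPS18, a ribosomal protein gene that all cells use, was also below 1 TPM in all 6 libraries, this says only that the table lists it so. PSMB11, the thymus subunit, was listed at 0 throughout. Of the 2 left-out genes, PSMB8 was listed at 0 in all 6 libraries and PSMB9 reached 0.131 TPM in control 2 and 0.318 TPM in DCBQ 2 and was listed at 0 elsewhere. As with PSMB3, the values of these 2 genes do not show that their transcripts were absent.

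PSMB10 (chromosome 16, 67934502 to 67937087, minus strand), which replaces PSMB7 in the immunoproteasome, rose by as much as the strongest constitutive ring genes. It had 72.6, 72.8 and 69.8 TPM in control and 118, 117 and 119 TPM in DCBQ. The values within a group were almost equal and the groups far apart, a 1.65-fold rise (log2 difference 0.71, SE 0.043, limma adjusted p = 7.2e-06). The ratio of PSMB10 to PSMB7 was 0.212, 0.224 and 0.196 in control and 0.286, 0.311 and 0.308 in DCBQ. A read-through gene with PSMB10 exons, AC040162.1, had 3.51 to 4.73 TPM in control and 8.68 to 9.32 TPM in DCBQ, and adding it gave a 1.67-fold difference.

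The activators split by kind. PSME1 and PSME2 form a mixed ring that interferon induces and that favours peptide release for antigen presentation, and both rose. PSME2 (chromosome 14, 24143362 to 24147570, minus strand) had 150.5, 148 and 164 TPM in control and 355, 324 and 339 TPM in DCBQ. This 2.2-fold rise was the largest of the 44 tested members (log2 difference 1.13, SE 0.054, limma adjusted p = 2.1e-06), and 1.54% of all tested genes had a larger difference. PSME1 (chromosome 14, 24136158 to 24138967, plus strand), whose gene ends 4394 bases from PSME2, rose from 317, 308 and 304 TPM to 419, 403 and 406 TPM, 1.32-fold (adjusted p = 6.8e-05). The ratio of PSME2 to PSME1 was 0.475 to 0.540 in control and 0.806 to 0.846 in DCBQ, so the less abundant partner of the mixed ring came closer to the other. PSME3, which forms a ring of its own in the nucleus, had 153, 143 and 146 TPM in control and 148, 146 and 137 TPM in DCBQ (log2 difference -0.04, 95% interval -0.15 to 0.07, adjusted p = 0.52). PSME4, a large single-chain activator, had 44.2 ± 1.6 and 44.3 ± 2.3 TPM (log2 difference 0.00, 95% interval -0.14 to 0.14, adjusted p = 0.98). Under median-of-ratios scaling all 4 were called higher, PSME3 by 0.20 and PSME4 by 0.24. PSMF1, which encodes the inhibitor PI31, rose 1.255-fold from 84.2, 92.5 and 86.5 TPM to 121, 106 and 103 TPM (adjusted p = 0.0057).

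**Figure D3:**
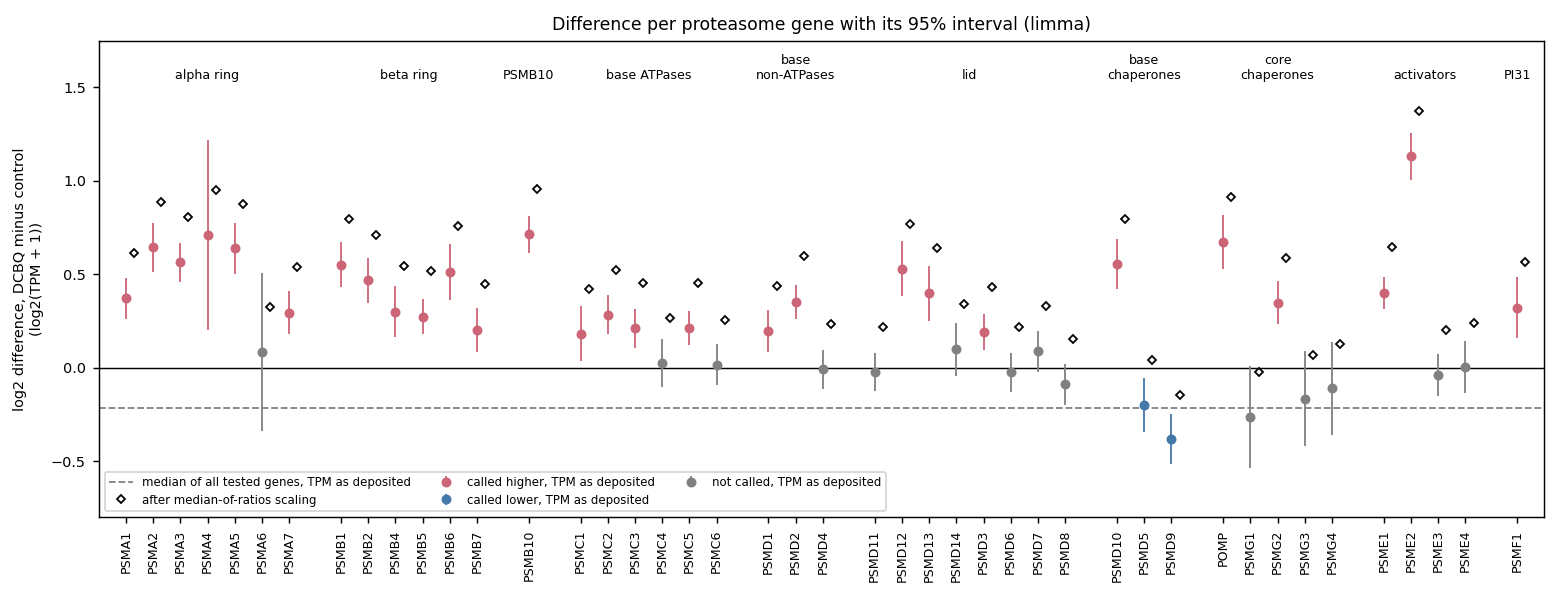
Log2 difference (DCBQ minus control, log2(TPM + 1)) of each tested member with its 95% interval from limma, coloured by call, and the same difference after median-of-ratios scaling (open diamonds). PSME2 stands highest at 1.13, core ring genes lie mostly between 0.20 and 0.71, and PSMD9 is lowest at -0.38, with the median of all tested genes (-0.21) dashed.

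The promoters of PSME2, PSME1, PSMB10 and POMP, genes that interferon is known to induce and that rose, are shown with those of PSMG4 and PSMD9, which did not rise. Each has the letters of either of 2 motifs in or beside the window, but that alone does not set the choice. Other members with such letters are not printed, among them PSMB4, PSMC2, PSMD3, PSMD12 and PSMG2, which rose. PSMD5, PSMG1 and PSME4, which did not rise, have them too and are not printed. Nor was the choice by rank of change: PSMA2, PSMA3, PSMA5 and PSMD10 rose more than PSME1 and are not printed. The 200 bases before the RefSeq start of each gene (GRCh38.p14, 5′ to 3′ on the gene's strand) are printed in lower case, with capitals for GAAANNGAA (core of the interferon-stimulated response element) and TGACNNNGC (core of the antioxidant response element, which NRF1 and NRF2 bind), on either strand. The first is in the windows of PSME2, PSMB10, POMP and PSMG4, and the second in those of PSME2, PSME1 and PSMD9.
PSME2, chr14:24146611-24146810, minus strand: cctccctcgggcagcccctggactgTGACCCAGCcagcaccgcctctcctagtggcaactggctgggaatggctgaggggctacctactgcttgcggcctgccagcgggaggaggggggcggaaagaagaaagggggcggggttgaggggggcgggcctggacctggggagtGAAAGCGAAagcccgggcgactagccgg
PSME1, chr14:24135994-24136193, plus strand: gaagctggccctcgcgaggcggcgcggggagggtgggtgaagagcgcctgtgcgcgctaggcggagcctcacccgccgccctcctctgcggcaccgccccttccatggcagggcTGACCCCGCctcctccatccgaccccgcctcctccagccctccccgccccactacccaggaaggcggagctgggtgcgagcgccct
PSMB10, chr16:67936851-67937050, minus strand: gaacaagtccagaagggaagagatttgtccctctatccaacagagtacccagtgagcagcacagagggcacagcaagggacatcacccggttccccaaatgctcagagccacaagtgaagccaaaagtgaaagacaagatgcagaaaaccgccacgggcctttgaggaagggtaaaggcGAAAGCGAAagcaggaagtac
POMP, chr13:28658930-28659129, plus strand: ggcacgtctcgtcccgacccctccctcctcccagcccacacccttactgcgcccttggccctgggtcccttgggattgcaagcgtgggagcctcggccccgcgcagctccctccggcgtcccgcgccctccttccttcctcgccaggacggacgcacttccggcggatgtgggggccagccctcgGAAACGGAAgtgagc
PSMG4, chr6:3258747-3258946, plus strand: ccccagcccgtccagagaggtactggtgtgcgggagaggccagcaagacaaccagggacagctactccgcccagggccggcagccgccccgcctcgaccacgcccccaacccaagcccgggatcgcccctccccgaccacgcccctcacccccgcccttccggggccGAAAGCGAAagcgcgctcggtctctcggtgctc
PSMD9, chr12:121888590-121888789, plus strand: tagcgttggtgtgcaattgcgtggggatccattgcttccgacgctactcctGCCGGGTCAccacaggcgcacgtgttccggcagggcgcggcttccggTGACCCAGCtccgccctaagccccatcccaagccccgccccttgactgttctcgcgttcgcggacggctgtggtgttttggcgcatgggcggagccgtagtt

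The same 9 letters, GAAAGCGAA, begin 28 bases before the start of PSME2, 21 before that of PSMB10 and 33 before that of PSMG4, while in PSME1 the reverse complement lies just after the start and so outside the printed window. In POMP the match shares 5 bases with CGGAAG, the core of ETS factor sites. Over the full RefSeq windows of 300 bases (250 before and 50 after the start), which 41 members have, GAAANNGAA was found in 8 members (19.5%), against 8.29% of 27305 promoters and 6.17% of the 10134 of tested protein-coding genes. This motif was chosen after the values were known. The 8 were PSME1, PSME2, PSMB10, POMP, PSMA4, PSMB4 and PSMC2, which rose, and PSMG4, which did not pass the test. Of all 41 members with a promoter window, 24 were called higher. TGACNNNGC was found in 12 members (29.3%), against 13.6% of all promoters and 15% of those of tested protein-coding genes. Of these 12 members 6 were called higher, 2 lower (PSMD5 and PSMD9), 3 did not pass and 1 was not tested. CGGAAG was found in 23 members (56.1%, against 19.9% and 33.4%), CCAAT, the NF-Y box, in 18 (43.9%, against 35.7% and 36.4%), and GAANNTTC, the heat shock element core, in 0 (against 6.87% and 4.56%). A match describes letters in a window and does not show that a factor binds there.

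In the regulatory particle the ATPase ring rose modestly. Of 6 base ATPase genes 4 rose, 0 fell and 2 did not pass, with a median of 0.20. PSMC2 had 63.3, 64.4 and 65.8 TPM in control and 80.3, 77.6 and 78.4 TPM in DCBQ, a 1.22-fold rise and the largest of the ring (log2 difference 0.28, SE 0.046, limma adjusted p = 0.0011). PSMC3 and PSMC5 rose 1.16-fold each. Of the exonic bases of PSMC5, 19.5% lie opposite exons of FTSJ3. FTSJ3 had 30.1 to 31.1 TPM in control and 33.0 to 36.6 TPM in DCBQ, and its part in the PSMC5 difference was not tested. Of the exonic bases of PSMC1, 75.8% lie opposite exons of NRDE2 (5.20 to 6.43 TPM), and the strand setting of the counting is unknown. PSMC1 passed as deposited (1.14-fold, adjusted p = 0.044) and lost its call in 7 of 19 alternatives, among them leaving out control 1 (adjusted p = 0.14), control 2 (0.11), DCBQ 1 (0.097) or DCBQ 3 (0.13). PSMC4 and PSMC6 had differences of 0.02 each, with 95% intervals of -0.10 to 0.15 and -0.09 to 0.13. Under median-of-ratios scaling all 6 were called higher.

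Of the base scaffold genes, PSMD2, the landing site of shuttle proteins, rose from 242, 247 and 253 TPM to 326, 309 and 312 TPM, 1.28-fold (log2 difference 0.35, SE 0.040, limma adjusted p = 0.00019). Its partner PSMD1 rose 1.15-fold. PSMD4, a ubiquitin receptor, had 165, 161 and 164 TPM in control and 168, 154 and 165 TPM in DCBQ, with overlapping groups (adjusted p = 0.88). Its difference of -0.01 turned to 0.23 under median-of-ratios scaling (adjusted p = 0.013).

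The lid, which houses the deubiquitinase PSMD14, had 8 genes, of which 3 rose and 5 did not pass, with a median of 0.09. PSMD12 (chromosome 17, 67337916 to 67366627, minus strand), the least abundant lid gene, rose from 34.7, 37.3 and 38.2 TPM to 56.3, 53.3 and 50.8 TPM. That is 1.46-fold, with every DCBQ value above every control value (log2 difference 0.53, SE 0.064, limma adjusted p = 0.00025). PSMD13 rose 1.32-fold from 101 ± 4.8 to 133 ± 9.3 TPM and PSMD3 1.14-fold. PSMD14 itself had 86.9, 78.5 and 76.7 TPM in control and 83.39, 85.63 and 90.01 TPM in DCBQ (adjusted p = 0.21). PSMD6, PSMD7, PSMD8 and PSMD11 lay between -0.09 and 0.09. Under median-of-ratios scaling 7 of the 8 were called higher, all except PSMD8 (0.15, adjusted p = 0.070), and the differences of PSMD6, PSMD8 and PSMD11 turned from negative to positive.

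The summed transcripts of core and regulatory particle genes shifted against each other. The 14 constitutive ring genes summed to 1964, 2059 and 2094 TPM in control and 2828, 2610 and 2617 TPM in DCBQ, a 1.32-fold difference. The 17 regulatory particle genes summed to 2009, 1975 and 2005 TPM in control and 2255, 2187 and 2224 TPM in DCBQ, a 1.11-fold difference. The ratio of the first sum to the second was 0.978, 1.04 and 1.04 in control and 1.254, 1.193 and 1.177 in DCBQ, with no overlap between the groups. An exact permutation test gave a two-sided p = 0.1. That is the smallest that 3 against 3 allows, so the test could not fall under 0.05 and decides nothing. Leaving PSMA4 and PSMA6 out of the core sum gave 0.823 to 0.847 in control and 0.945 to 1.000 in DCBQ. Both sums follow the symbol rule and are incomplete. The particle sum lacks its subunits ADRM1 (mean 309.8 TPM in control, 249.6 in DCBQ) and SEM1 (38.3 and 57.9 TPM). PSMB3, listed at or near 0, adds almost nothing to the core sum. A ratio within a library does not depend on the scaling of that library. Levels within a ring were far from equal, since the control means ranged 11.5-fold over the core ring genes, from PSMA5 to PSMB7, and 6.73-fold over the regulatory particle, from PSMD12 to PSMD2.

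**Figure D4:**
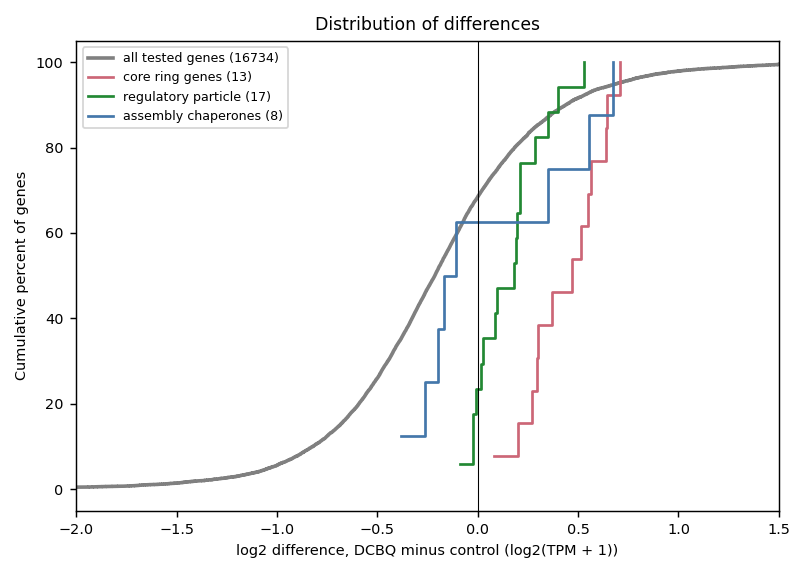
Cumulative percent of genes (vertical axis) against log2 difference (DCBQ minus control) for all 16734 tested genes, 13 core ring genes, 17 regulatory particle genes and 8 assembly chaperone genes. The core ring curve lies furthest right with a median of 0.47, the regulatory particle follows at 0.18, and the chaperones at -0.14.

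Assembly chaperones did not move as a group. POMP (chromosome 13, 28659104 to 28678925), which completes the beta rings, had 61.4, 67.0 and 65.8 TPM in control and 102, 98.2 and 112 TPM in DCBQ. Its 1.61-fold rise left a wide gap between the groups (log2 difference 0.67, SE 0.063, limma adjusted p = 6.3e-05). The partners PSMG1 and PSMG2, which together start the alpha ring, differed. PSMG2 rose 1.28-fold from 71.4 ± 1.2 to 91.2 ± 3.8 TPM (adjusted p = 0.00056), while PSMG1 had 85.4, 86.7 and 96.2 TPM in control and 83.4, 81.0 and 60.4 TPM in DCBQ (log2 difference -0.26, adjusted p = 0.092). DCBQ 3 had the lowest PSMG1 value by a wide margin, and without it the difference was -0.12. PSMG3 and PSMG4, the partners of a further chaperone, had -0.17 and -0.11 with overlapping groups, and both turned positive under median-of-ratios scaling.

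Of the 3 chaperones of the base, PSMD10 (gankyrin) rose and the other 2 were called lower as deposited. PSMD10 (chromosome X, 108084207 to 108091618, minus strand) had 38.1, 42.0 and 38.9 TPM in control and 60.5, 58.8 and 56.9 TPM in DCBQ, 1.48-fold with no overlap (log2 difference 0.56, SE 0.059, limma adjusted p = 0.00012). PSMD9 had 35.6, 37.6 and 37.6 TPM in control and 28.1, 27.6 and 28.6 TPM in DCBQ (log2 difference -0.38, adjusted p = 0.00078). After median-of-ratios scaling its difference was -0.14 (adjusted p = 0.082) and after quantile normalization -0.12 (adjusted p = 0.14) while with the length and GC trend removed it was -0.21 (adjusted p = 0.012). PSMD5, at 42.7 ± 2.3 and 37.1 ± 1.3 TPM, had -0.20 (adjusted p = 0.027), which is about the median of all tested genes, and 0.04 after median-of-ratios scaling. Its call was also lost without control 1 (adjusted p = 0.097), control 3 (0.073), DCBQ 1 (0.064) or DCBQ 2 (0.060).

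Genes that act with the proteasome were described from 6 lists, read against the same shares of all tested genes. Of 12 proteasome-bound factors 1 was higher and 8 lower, with a median of -0.31, beside 13.4% and 39.5% of all tested genes. After median-of-ratios scaling 1 was higher and 2 lower, beside 23.9% and 23.1% of all tested genes. The gene that rose was SEM1, a small subunit of the lid, from 38.7, 38.1 and 38.3 TPM to 58.5, 53.4 and 61.9 TPM (1.51-fold, log2 difference 0.58, limma adjusted p = 0.00016). ADRM1, a ubiquitin receptor of the base and named here for its place in the particle after its values were seen, went from 309.8 ± 12 to 249.6 ± 19 TPM (log2 difference -0.31, limma adjusted p = 0.0028). After median-of-ratios scaling that difference became -0.07 (limma adjusted p = 0.49). ZFAND2A, a stress-induced zinc finger protein that binds proteasomes, fell 3.44-fold from 92.9 ± 0.44 to 27.0 ± 3.6 TPM, and ECPAS, a scaffold that restrains them, fell 1.49-fold.

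The NRF1 route senses low proteasome activity and induces proteasome genes. The list made for it also holds separate regulators, NFE2L2 (NRF2), HSF1, NFYA, NFYB and NFYC, so its counts are not those of the route alone. Of its 14 genes 1 was higher and 10 lower (median -0.36), beside 39.5% of all tested genes lower (49.2% of the as abundant genes). After median-of-ratios scaling 1 was higher and 7 lower, beside 23.1% lower (27.1% of the as abundant genes). NFE2L1, which encodes NRF1, had 137, 136 and 139.9 TPM in control and 97.7, 106 and 107 TPM in DCBQ. That decrease is 1.33-fold, with no overlap (log2 difference -0.41, limma adjusted p = 0.00023), while on the median-of-ratios scale it was -0.17 (adjusted p = 0.012). DDI2, the protease that activates NRF1, had 15.1 ± 0.22 and 13.1 ± 1.1 TPM (adjusted p = 0.085). The small MAF partner MAFG fell 2.01-fold and the heat shock factor HSF1 1.85-fold. The gene that rose was VCP, the ATPase that extracts ubiquitinated proteins from membranes and complexes. It had 88.4, 81.0 and 80.7 TPM in control and 162, 163 and 162 TPM in DCBQ, 1.95-fold (log2 difference 0.96, SE 0.049, adjusted p = 2.9e-06), and its change was larger than that of every member except PSME2.

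The list of VCP and cofactors had 1 higher, VCP itself, and 8 lower of 12, with a median of -0.36, and 3 and 6 after median-of-ratios scaling, against the same shares of all tested genes. YOD1, a deubiquitinase, fell 1.88-fold and FAF1, a ubiquitin-binding adaptor, 1.74-fold. Of 7 shuttle factors that carry substrates to the proteasome 1 was higher and 5 lower, beside 39.5% of all tested genes lower (49.2% of the as abundant genes), with a median of -0.20. After median-of-ratios scaling 1 was higher and 3 lower, beside 23.1% (27.1%) lower, and the median was 0.031. SQSTM1 (p62), which also acts in autophagy, fell 2.12-fold from 468 ± 15 to 221 ± 6.6 TPM, and the ubiquilins UBQLN1 and UBQLN4 fell 1.41-fold and 1.33-fold. NUB1 was the shuttle list gene that rose (log2 difference 0.29, limma adjusted p = 0.0010).

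Of 6 genes of ubiquitin and its activating enzymes 3 rose and 0 fell, beside 13.4% of all tested genes higher: the polyubiquitin gene UBB 1.30-fold from 1037 ± 39 to 1346 ± 61 TPM, and the activating enzymes UBA6 from 31.0 to 38.8 TPM and UBA1 1.15-fold. Of 9 peptidases that trim or destroy proteasome products 4 rose and 2 fell, beside 13.4% of all tested genes higher and 39.5% lower. After median-of-ratios scaling 7 rose and 0 fell, beside 23.9% higher and 23.1% lower (38.6% and 27.1% of the as abundant genes). The aminopeptidase gene RNPEP rose 1.68-fold from 61.2, 46.8 and 52.2 TPM to 88.5, 87.7 and 92.2 TPM, the dipeptidyl peptidase DPP3 1.62-fold and the puromycin-sensitive aminopeptidase NPEPPS 1.47-fold.

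**Figure D5:**
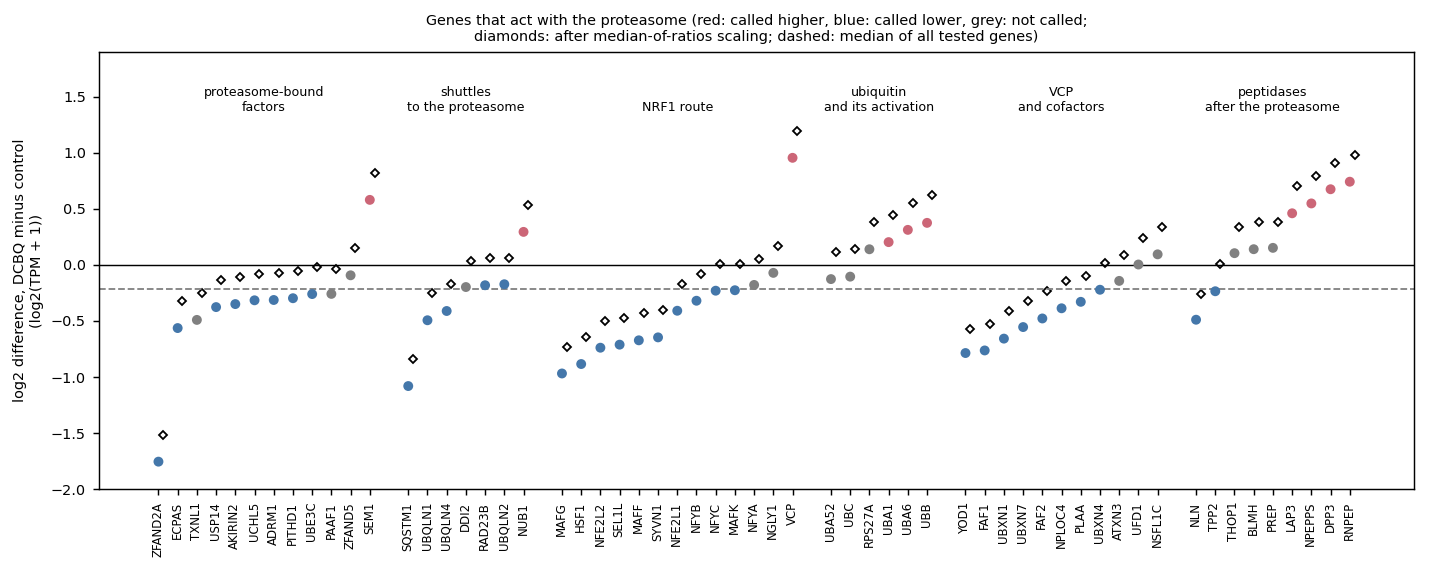
Log2 difference (DCBQ minus control, log2(TPM + 1)) of genes on 6 lists that act with the proteasome, coloured by limma call, with the difference after median-of-ratios scaling as diamonds. A gene on 2 lists is drawn in the first. VCP at 0.96 and ZFAND2A at -1.75 are the extremes.

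The 47 genes lie on 18 chromosomes, 8 of them on chromosome 14 and 7 on chromosome 17. Across the 44 tested members the log2 difference had a Spearman correlation of -0.21 with the length of the longest annotated transcript and of 0.12 with the control level, across genes that share the same 6 libraries. Subtracting from each library its fitted dependence on length and GC content gave 35 members higher and 1 lower, PSMD9, beside 24.0% and 23.8% of all tested genes. The median coefficient of variation of a member was 3.3% in control and 4.18% in DCBQ.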

How the data were processed

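The authors deposited 1 table of TPM for 60624 Ensembl identifiers in 6 libraries of 1000000 TPM each, and no column was left out. Build hg38 and the programs HISAT2 2.2.1, StringTie 2.1.7, Trimmomatic 0.38, DESeq2 1.34.0 and FastQC stand without roles in the list the submitters' processing notes give. No source used here names the annotation, the strand setting or the treatment of multi-mapped reads, so reads of overlapping, antisense or copied genes can be split in ways the table does not show. Of 45 proteasome pseudogenes, 3 had a mean of at least 1 TPM.

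Symbols came from a gene name table (60370 identifiers) and GENCODE 29 (another 230). Coordinates are 1-based, from GENCODE 29 on GRCh38, and promoters are from RefSeq (GRCh38.p14), where 41 of 47 members matched. Genes averaging 1 TPM or more entered limma 3.58.1 (R 4.3.3) as log2(TPM + 1) (lmFit, eBayes with a variance trend, group as the only term), two-sided, with Benjamini-Hochberg adjustment over 16734 genes. All adjusted p-values are from limma, from this fit unless another setting is named, and a call is an adjusted p under 0.05. Alternatives were other pseudocounts, filters, scalings, variance models, a replicate block and leaving out each library. Fold values are ratios of mean TPM. Tested on simulated data with the same 16734 genes and group sizes, 200 of the genes changed, the fit found 100% of log2 changes of 2, 90% of 1, 36% of 0.5 and 12% of 0.3, and 6 of its 125 calls were on unchanged genes. The changed genes were not drawn from the least abundant tested genes, so the rates do not cover those. The simulated noise was independent between genes, and the real fit called 8857 genes, so these rates need not hold for the real data.

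The members, lists and motifs were chosen with earlier results of these data known. Named genes are the members, up to 3 called genes without overlap of each companion list (those with the largest differences), NFE2L1, DDI2, PSMB8 and PSMB9. ADRM1 and NUB1 lie outside this rule and were chosen after their values were seen. The ratios of the core sum to the particle sum and of PSME2 to PSME1 were not among the planned ratios. Protein sequences were not used here. A shuttle factor and an immune marker were left out of their lists and are not reported here.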

Additional observations from a re-analysis of the deposited data

How the results depend on the processing

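Of the 30 called members 25 kept their call in all 19 alternatives. The exceptions were PSMA4, PSMB7, PSMC1, PSMD5 and PSMD9. The number of members higher ranged from 25 to 37, and it was 25 without the variance trend. It was also 25 when members that share exons with another protein-coding gene on the same strand were left out, an alternative that tests fewer members and, like the removal of the length and GC trend, was chosen after seeing the data. Sequencing depth is unknown in TPM, so no count-based limit can be given.

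All tested genes had 3814 higher and 3966 lower calls after quantile normalization, 3995 and 3861 after median-of-ratios scaling, and 3979 and 3941 with the length and GC trend removed, against 2247 and 6610 as deposited. Members called lower were 0 after quantile normalization and median-of-ratios scaling and 1 without mitochondrially encoded genes, without the trend in eBayes, with protein-coding nuclear genes alone and with the length and GC trend removed. The same numbers, 0 and 1, hold for the base chaperones called lower under those settings. Leaving out each library gave 1 to 2 members lower and 1 to 2 base chaperones lower. Lid genes called higher were 5 after quantile normalization, without mitochondrially encoded genes and with protein-coding nuclear genes alone, and 7 after median-of-ratios scaling and with the length and GC trend removed. Activators called higher were 4 under the last 2 settings. With array weights 1 core chaperone, PSMG1, was called lower (-0.38, adjusted p = 0.026). The cause of these shifts was not tested.

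Log2 differences that changed sign were those of members near 0 or near the median gene. After quantile normalization the values were 0.064 for PSMD4, 0.12 for PSMD11, 0.11 for PSMD6, 0.032 for PSMD5, 0.085 for PSMG3, 0.16 for PSMG4 and 0.054 for PSME3. After median-of-ratios scaling they were 0.23 for PSMD4, 0.22 for PSMD11, 0.22 for PSMD6, 0.15 for PSMD8, 0.039 for PSMD5, 0.070 for PSMG3, 0.13 for PSMG4 and 0.20 for PSME3. Without mitochondrially encoded genes they were 0.12 for PSMD4, 0.11 for PSMD11, 0.11 for PSMD6, 0.044 for PSMD8, 0.019 for PSMG4 and 0.093 for PSME3. With protein-coding nuclear genes alone they were 0.12 for PSMD4, 0.11 for PSMD11, 0.10 for PSMD6, 0.041 for PSMD8, 0.017 for PSMG4 and 0.090 for PSME3. With the length and GC trend removed they were 0.086 for PSMD4, 0.20 for PSMD11, 0.25 for PSMD6, 0.016 for PSMD8, 0.025 for PSMD5, 0.12 for PSMG4 and 0.15 for PSME3. PSMA6 had -0.095 with array weights. Leaving out each library in turn gave ranges of -0.14 to 0.30 for PSMA6, -0.020 to 0.075 for PSMC4, -0.0020 to 0.041 for PSMC6, -0.035 to 0.027 for PSMD4, -0.047 to 0.00030 for PSMD11, -0.19 to 0.0030 for PSMG4 and -0.026 to 0.044 for PSME4.

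With the replicate number as a block, 8500 genes were called (2156 higher, 6344 lower) against 8857, and 27 members were higher and 2 lower. PSMC1 lost its call in that replicate block fit (adjusted p = 0.054), and no other member's call changed. Same-numbered libraries had correlations of their deviations of -0.037, 0.045 and 0.046, and the other pairs ran from -0.070 to 0.028. With 3 libraries per group, these values cannot show whether same-numbered libraries share a batch.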
